A study of Mus musculus with 8 samples.

Results

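Accessible chromatin was examined at 10 genes that mark hepatic stellate cells and smooth muscle cells: Acta2, Tagln, Des, Pdgfra, Pdgfrb, Lrat, Reln, Dcn, Hand2 and Lhx2. The genes were chosen by name, with earlier results of these data known. A peak was counted for a gene when it overlapped the gene body or the 10 kb on either side, together called the locus, by 1 bp or more. These loci held 113 of the 295260 peaks in the 5 deposited peak lists, for 10 of 21887 protein-coding genes. Merging peaks that overlapped between lists gave 54 regions at these loci, of 138775 regions in all.

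The assay was ATAC-seq, which reads out open chromatin by where a transposase can insert sequencing adapters, on primary mouse liver cells of an Rb family triple knockout model of hepatocellular carcinoma. Cells were released from liver or from visible lesions, had no treatment, and were all sorted for YFP, the sign that Cre had recombined the floxed alleles, so the deletion is shared by every group. The 8 samples were EpCAM-high cells of a CK19 set (2) and a Sox9 set (1), Thy1+ cells of a CK19 set (2) and a Sox9 set (1), and Epcam- cells (2). The labels give no age, strain, allele or Cre driver, and say neither what CK19 and Sox9 stand for nor whether animals were pooled. The lists are 2 named EpCAM-high (CK19 and Sox9), 2 named Prog-like (CK19 and Sox9) and Tumor Sox9. By name, the EpCAM-high lists match sample groups. The names of the other 3 occur in no sample label, and these lists were assigned to no sorted group. Since a condition has a single list, spread between replicates is not known, no test was made, and every comparison describes these 5 lists alone. Read depth is unknown. A site open in few cells, a site weakly open in many cells and a site missed at low depth cannot be told apart.

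Hepatic stellate cells lie between the hepatocytes and the sinusoidal endothelium and store vitamin A. After injury they become contractile, matrix-producing myofibroblasts, a change driven in part by platelet-derived growth factor (PDGF) acting on its receptors. They share contractile genes with the smooth muscle of vessels, and the transcription factors Hand2 and Lhx2 act in their differentiation and quiescence.

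The lists differed in how many peaks the markers of other liver cells held. All 10 macrophage markers had a locus peak in both Prog-like lists, with 78 peaks in CK19 and 74 in Sox9. In the EpCAM-high lists 2 (CK19) and 4 (Sox9) of them did, with 4 and 8 peaks, and in Tumor Sox9 2 did, with 6 peaks, and Adgre1, Lyz2, Clec4f, Vsig4, Marco and Timd4 held 0 in each of these 3 lists. Below, 5 values in a row stand for EpCAM-high (CK19, then Sox9), Prog-like (CK19, then Sox9) and Tumor Sox9, and 4 values for the lists without Tumor Sox9. Over all protein-coding genes, 75.8%, 74.6%, 74.5%, 72.4% and 68.8% had a locus peak. The 10 biliary markers held 57, 68, 16, 13 and 27 peaks, with a peak at 10, 10, 5, 4 and 8 genes. Krt19, Krt7, Cftr and Cldn4 were among those that held 0 in both Prog-like lists, whereas Epcam held 2, 2, 3, 3 and 1 and Sctr, with most of the Prog-like biliary peaks, held 8, 9, 9, 8 and 9. The 10 endothelial markers held 13, 19, 51, 42 and 15 peaks, with a peak at 7, 7, 8, 8 and 6 genes, near the share of all genes. Among them, Stab2 held 2, 2, 15, 16 and 7 and Pecam1 held 1, 2, 12, 5 and 1. Cdh5 held 1, 2, 7, 7 and 1, and Kdr held 1, 0, 5, 5 and 0. By contrast, Tie1 held 0 in every list, Lyve1 held 4, 6, 4, 4 and 2, and Egfl7 held 0, 2, 0, 0 and 3. The 10 hepatocyte markers held 15, 16, 5, 3 and 30 peaks at 7, 8, 3, 3 and 8 genes, and Alb held 0 in both Prog-like lists. The 9 T cell markers found in the annotation held 7, 7, 19, 19 and 7 peaks at 5, 4, 6, 6 and 3 genes, with Cd3e and Thy1 at 0 in every list. The 8 mesothelial markers held 21, 19, 14, 9 and 5 peaks at 6, 5, 6, 4 and 3 genes, with Msln and Upk3b at 0 in both EpCAM-high lists and Wt1 and Krt19 at 0 in both Prog-like lists. Of these markers, Upk1b held the most in both Prog-like lists (1, 0, 6, 6 and 0). With the lists cut to equal length, as described below, the macrophage markers held 3, 4, 43, 41 and 6 peaks. The endothelial markers then held 11, 11, 24, 26 and 15, and the biliary markers 38, 45, 9, 9 and 27. The hepatocyte markers held 14, 9, 1, 1 and 30, the T cell markers 2, 3, 9, 9 and 7 and the mesothelial markers 15, 9, 5, 4 and 5. The part of these cells in the stellate and smooth muscle results was not tested.

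The DNA just before a gene start is shown for Lrat, Reln, Lhx2 and Acta2, because the lists that held a peak there ranged from all 5 to none. RefSeq (GRCm38.p6, the same build as mm10) gave a start for 7 of the 10 genes, all but Tagln, Pdgfrb and Dcn. The 250 bases before it are printed 5′ to 3′ on the strand of the gene. In Lrat (chr3:82903975-82904224, minus strand) all 5 lists held a peak that overlapped this window, and capitals mark a match to CATTCC, the MCAT site bound by TEAD factors.
Lrat: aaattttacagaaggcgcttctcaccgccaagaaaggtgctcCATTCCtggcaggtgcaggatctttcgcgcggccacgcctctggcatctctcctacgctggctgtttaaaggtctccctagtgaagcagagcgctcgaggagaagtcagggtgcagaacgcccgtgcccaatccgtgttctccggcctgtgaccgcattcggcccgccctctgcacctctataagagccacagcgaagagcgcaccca
In Reln (chr5:22344706-22344955, minus strand) both EpCAM-high lists and Prog-like Sox9 held a peak that overlapped the window, and capitals mark 6 matches to the GC box GGGCGG, bound by Sp factors.
Reln: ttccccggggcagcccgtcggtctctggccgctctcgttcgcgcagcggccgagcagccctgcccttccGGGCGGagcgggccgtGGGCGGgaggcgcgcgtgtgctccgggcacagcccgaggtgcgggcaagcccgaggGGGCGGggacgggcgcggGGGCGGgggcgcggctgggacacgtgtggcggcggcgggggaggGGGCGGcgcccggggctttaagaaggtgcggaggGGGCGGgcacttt
Lhx2 has 2 annotated starts on the plus strand. A peak overlapped the window before the upstream start (chr2:38339031-38339280, with 4 GC boxes in capitals) in EpCAM-high Sox9 and Tumor Sox9. The EpCAM-high Sox9 peak reached only the last base of the window, at -1 bp, and covered no GC box. The Tumor Sox9 peak began at -39 bp and covered only the GC box at -15 bp. The Prog-like peaks began 9 (CK19) and 53 (Sox9) bp after the start, so the lists differed by few bases here. A peak overlapped the window before the downstream start (chr2:38351058-38351307), which holds none of the 6 motifs searched, in all 5 lists.
Lhx2 upstream start: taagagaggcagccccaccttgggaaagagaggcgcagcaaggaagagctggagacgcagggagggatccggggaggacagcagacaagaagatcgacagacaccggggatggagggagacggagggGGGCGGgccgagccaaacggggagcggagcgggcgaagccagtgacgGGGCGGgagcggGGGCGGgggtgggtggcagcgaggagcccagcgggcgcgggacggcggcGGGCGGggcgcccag
Lhx2 downstream start: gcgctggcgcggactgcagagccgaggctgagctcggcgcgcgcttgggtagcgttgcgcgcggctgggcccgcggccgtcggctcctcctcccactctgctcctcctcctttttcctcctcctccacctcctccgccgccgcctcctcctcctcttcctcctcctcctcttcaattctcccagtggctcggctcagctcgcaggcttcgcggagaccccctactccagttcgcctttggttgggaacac
In Acta2 (chr19:34255374-34255623, minus strand) no list held a peak that overlapped the window, and capitals mark an MCAT site that reads CATTCC on the opposite strand.
Acta2: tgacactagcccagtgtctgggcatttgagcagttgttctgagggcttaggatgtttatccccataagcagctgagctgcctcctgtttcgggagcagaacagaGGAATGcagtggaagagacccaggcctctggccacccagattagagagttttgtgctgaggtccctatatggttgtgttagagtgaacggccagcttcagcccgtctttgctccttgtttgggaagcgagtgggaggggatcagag
Searched on both strands, CATTCC was present in 11.7% and GGGCGG in 42.6% of 21263 such windows of protein-coding genes. The E-box CANNTG was in 62.8% of windows and before Acta2, Des, Pdgfra, Lrat, Reln and Hand2. The CArG box of serum response factor, in its strict form with only A or T in the middle (1.39% of windows), TATAAA (11.6%) and the AP-1 site TGANTCA (6.13%) had no match in the 8 windows of these genes, which says only that those letters are not in them. Looser forms of the CArG box were not counted. The Acta2 window printed above holds ccctatatgg and ccttgtttgg, each a single letter off the strict form.

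The share of the 10 genes with a locus peak was near that of all genes in 4 of the lists and lower in Tumor Sox9. A locus peak was found at 8 of 10 genes in EpCAM-high CK19 (75.8% of all protein-coding genes), 7 in EpCAM-high Sox9 (74.6%) and in the Prog-like lists at 8 for CK19 (74.5%) and 7 for Sox9 (72.4%). In Tumor Sox9, the shortest list, it was found at 4 of 10 (68.8%). The median gene of the 10 held 1.5, 2, 1, 1 and 0 peaks, against 2, 2, 2, 2 and 1 over all genes. A peak within 1000 bp of the gene start was found at 4 genes in EpCAM-high CK19 (59% of all genes), 4 in EpCAM-high Sox9 (59%), 3 and 4 in the Prog-like lists of CK19 (57.6%) and Sox9 (54.6%) and 2 in Tumor Sox9 (52%).

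The sum over the 10 genes was 28, 27, 27, 24 and 7 peaks, and different genes carried it. Reln held 28 of the peaks of both EpCAM-high lists together and 2 of those of both Prog-like lists. Pdgfrb held 3 and 17, and Acta2 held 4 and 15. Hand2 held 6 and 2, Pdgfra 4 and 6, Lhx2 6 and 6, and Lrat 2 and 2. Tagln (0 and 1), Des (0 and 0) and Dcn (2 and 0) were nearly or wholly without peaks. In Tumor Sox9, Lhx2 held 4 of the 7 peaks, Pdgfra, Lrat and Reln held 1 each, and the other 6 genes held 0.

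**Figure D1:**
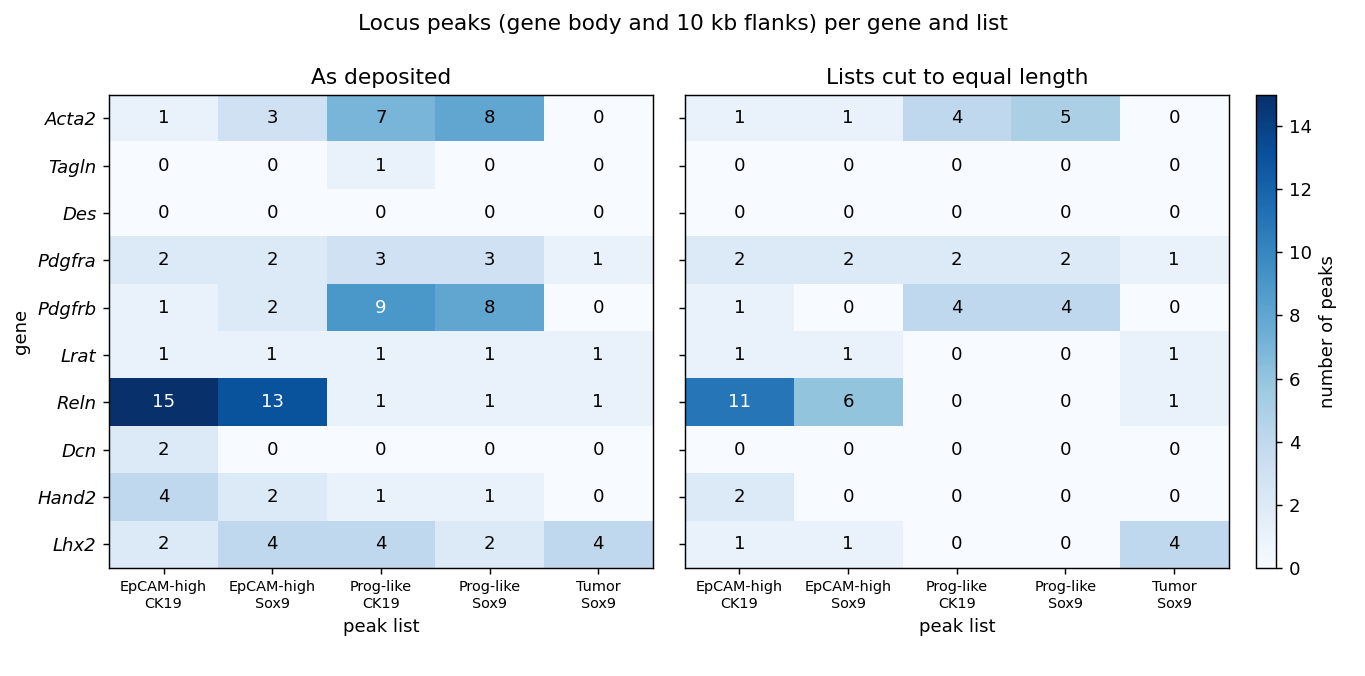
Peaks at the locus (gene body and 10 kb on either side) of each of the 10 genes, given as a number per gene in each of the 5 peak lists. Reln stands at 15 and 13 in the EpCAM-high lists and 1 in each of the others, while Acta2 (7 and 8) and Pdgfrb (9 and 8) are highest in the Prog-like lists.

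Lists of unequal length were also cut to 39644 peaks each, the length of Tumor Sox9, by the authors' −log10 p. The 10 genes then held 19, 11, 10, 11 and 7 peaks, with a locus peak at 7 (69.9% of all genes), 5 (68.3%), 3 (65.5%), 3 (64%) and 4 (68.8%) of them. In both Prog-like lists only Acta2, Pdgfra and Pdgfrb kept a peak. A peak near the start was left at 4 (54.4%), 3 (52.4%), 0 (48.3%), 1 (46.3%) and 2 (52%) of 10 genes.

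Among the contractile genes, Acta2, which encodes smooth muscle α-actin, was the only one with more than 1 peak in any list. Its locus (chr19:34240336-34255585, gene ID 11475, minus strand, start at 34255373) held 1, 3, 7, 8 and 0 peaks, or 2.84, 8.51, 19.9, 22.7 and 0 per 100 kb of locus. Both Prog-like lists lay above both EpCAM-high lists, and the nearest Tumor Sox9 peak was 26924 bp away. At equal length the numbers were 1, 1, 4, 5 and 0.

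The peaks formed 8 regions, of which 4 were held by both Prog-like lists and no other. The site with the strongest Prog-like peaks, chr19:34248522-34249047, lay in the gene body 6.594 kb after the start. The authors' −log10 q, the peak caller's significance, was 80.8 (CK19) and 86.2 (Sox9) in the Prog-like lists, within the top 23.0% and 15.2% of those lists. EpCAM-high Sox9 held a peak there with a −log10 q of 2.73, in the weakest part of its list (top 95.4%), and EpCAM-high CK19 and Tumor Sox9 held none. A second region in the gene body, chr19:34243759-34244469, 11.153 kb after the start, was held by all lists but Tumor Sox9. Its −log10 q was 21.3, 22.3, 26.2 and 11.4, on a scale that also moves with depth. Within its own list the peak ranked in the top 38.5%, 31.3%, 55.0% and 73.9%, so higher in both EpCAM-high lists than in either Prog-like list.

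The promoter of Acta2 held no peak over its start in any list. The nearest region, chr19:34254240-34254836, lay inside the gene, with summits 777 to 833 bp after the start in EpCAM-high Sox9 (−log10 q 6.17) and in Prog-like CK19 (20.9) and Sox9 (29.8). The edges of these peaks ran from 537 to 1133 bp after the start, beyond the 250 bases printed above. The Prog-like region with the highest −log10 q that no EpCAM-high peak overlapped was chr19:34233857-34234351 (59.0 in Prog-like Sox9). It lies with chr19:34231600-34231974 in Stambpl1, the deubiquitinase gene that ends 3 bp from Acta2, so a peak there could belong to either gene. Counting only peaks nearer to Acta2 than to any other gene gave 1, 3, 5, 6 and 0.

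Tagln, which encodes the actin-binding protein SM22α (gene ID 21345, chr9:45929628-45936058), held 1 peak, in Prog-like CK19, at chr9:45932118-45932438. Its −log10 q was 3.99 and it ranked in the last part of that list (top 95.1%). In the other 4 lists the nearest peak was 17239 to 18589 bp away. Des, which encodes the intermediate filament protein desmin (gene ID 13346, chr1:75360292-75368579, plus strand), held 0 peaks in every list, and its nearest peaks were 17024 to 30218 bp away. Neither gene showed the many Prog-like peaks of Acta2.

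Of the PDGF receptor genes, Pdgfrb showed the contrast between Prog-like and EpCAM-high lists in number of peaks and Pdgfra showed it much less. By region, 2 of the 3 at Pdgfra were held by both Prog-like lists and no other. Pdgfrb encodes the receptor β chain, carried by stellate cells and pericytes (gene ID 18596, chr18:61045127-61085067). It held 1, 2, 9, 8 and 0 peaks, or 1.67, 3.34, 15.01, 13.35 and 0 per 100 kb, and 1, 0, 4, 4 and 0 at equal length. The nearest Tumor Sox9 peak lay 66350 bp from the gene.

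Of 10 Pdgfrb regions, 6 were held by both Prog-like lists and no other. The strongest was chr18:61074501-61075118 in the gene body, with −log10 q 106 in Prog-like CK19 (top 16.2% of the list) and 52.6 in the Sox9 list (top 27.6%). The next were beyond the gene's upper end at chr18:61086675-61087437 (76.0 and 50.6) and chr18:61090614-61091266 (42.0 and 46.4). EpCAM-high peaks at this locus were few. EpCAM-high CK19 held 1 of −log10 q 9.997 at chr18:61068481-61068680, shared with Prog-like CK19 (23.3). The rank of that site was alike in the lists, top 59.8% in EpCAM-high CK19 and top 58.5% in Prog-like CK19. EpCAM-high Sox9 held 2, both low in its list. The peak at chr18:61089800-61089970 (4.06, top 87.6%) was in no other list. The peak at chr18:61039831-61040194 (2.45, top 96.8%) was shared with both Prog-like lists (34.5 and 20.6, top 47.0% and 56.8%). The last region lies in the neighbouring gene Gm52351, 414 bp from Pdgfrb.

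The macrophage receptor gene Csf1r starts 20.505 kb beyond that upper end of Pdgfrb and held 0, 3, 8, 8 and 0 peaks at its own locus, an order across the lists like that of Pdgfrb. Counting only peaks nearer to Pdgfrb than to any other gene left it with 1, 1, 8, 7 and 0. Which of these genes a peak between them serves was not tested.

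**Figure D2:**
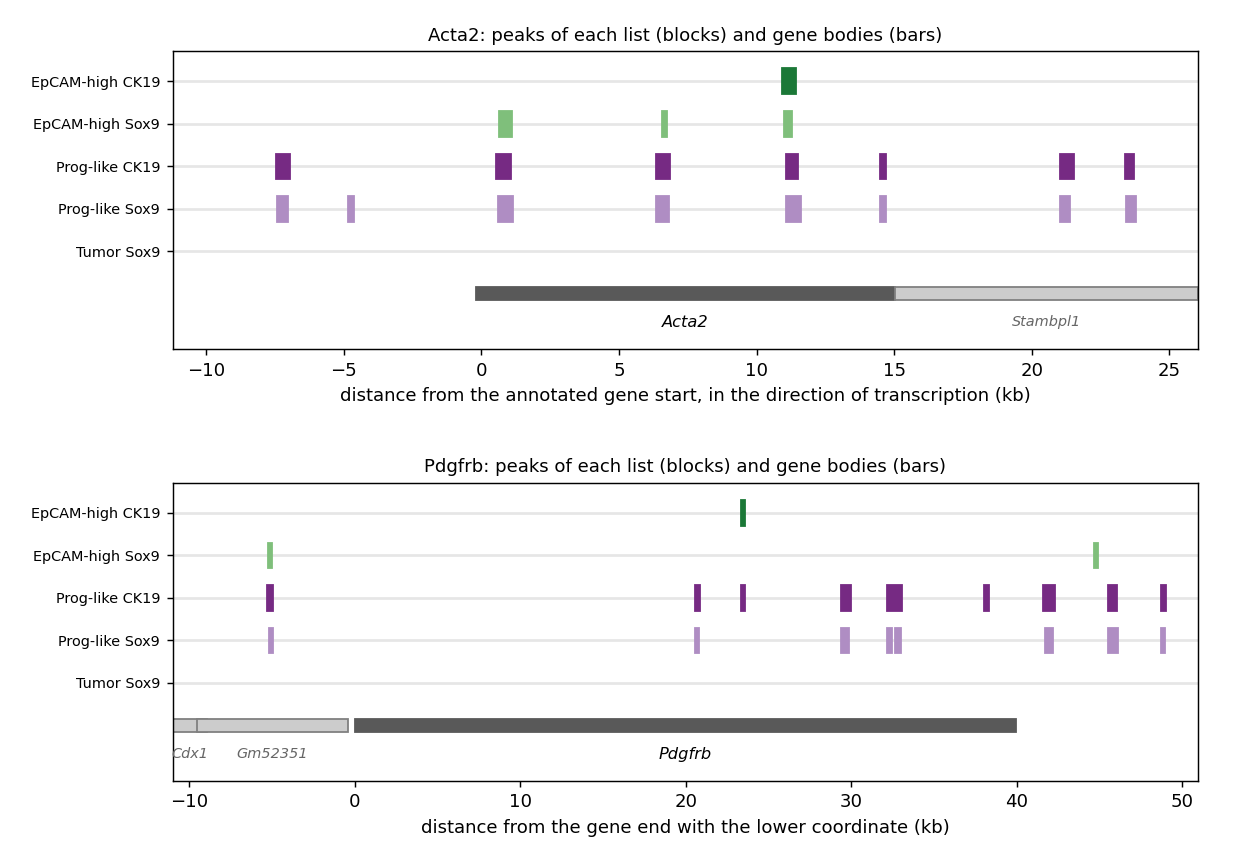
Positions of peaks across the Acta2 and Pdgfrb loci, in kb, with 1 row for each peak list and the gene body marked. The Prog-like rows hold 7 and 8 peaks at Acta2 and 9 and 8 at Pdgfrb, and the Tumor Sox9 row is empty at both.

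Pdgfra, which encodes the receptor α chain of fibroblasts and stellate cells (gene ID 18595, chr5:75151322-75198206, plus strand, start at 75152251), held 2, 2, 3, 3 and 1 peaks (2, 2, 2, 2 and 1 at equal length). No peak covered the start. The region chr5:75156266-75157328 in the gene body was held by all 5 lists, but peaks within it differed. Each EpCAM-high list had a pair of separate peaks there, with summits 4098 and 4975 bp after the start in CK19 and 4099 and 4967 bp in Sox9. Each Prog-like list had 1 peak with its summit 4978 bp after the start, of widths 1045 and 1025 bp and −log10 q 52.6 and 50.3. Tumor Sox9 had 1 peak of 918 bp with its summit at 4158 bp and a −log10 q of 9.57. The Prog-like summits thus lay at the farther of the EpCAM-high summits, and the Tumor summit nearer to the other. Both Prog-like lists and no other held chr5:75153732-75154661, 2.109 kb after the start (highest −log10 q 35.6), and chr5:75143096-75143460, before it at -8.868 kb (20.9).

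Lrat, whose enzyme esterifies retinol for storage, was the only gene of the 10 with exactly 1 peak in every list. The peak covered the gene start in each (gene ID 79235, chr3:82892582-82903974, minus strand, region chr3:82903385-82904503). The MCAT site printed above, whose first base is at -208 bp, lay within the peaks of EpCAM-high CK19 (from -431 bp) and Tumor Sox9 (from -529 bp). The other peaks began at -197, -115 and -130 bp, nearer to the start than the site. Relative to the start, summits were at -8, -33, 1, 98 and -55 bp. The authors' −log10 q was 18.8, 33.3, 14.7, 4.47 and 5.13. Within its own list the peak ranked in the top 42.0%, 20.2%, 71.0%, 93.0% and 69.2%, so it was among the stronger peaks in EpCAM-high Sox9 and among the weakest in Prog-like Sox9. At equal length it was absent from both Prog-like lists.

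Reln, which encodes the secreted protein reelin, a stellate cell marker in liver, held the most peaks of the 10 genes, nearly all of them in the EpCAM-high lists. The gene is long (gene ID 19699, chr5:21884454-22344705, minus strand, 460.252 kb) and held 15, 13, 1, 1 and 1 peaks, or 3.12, 2.71, 0.208, 0.208 and 0.208 per 100 kb. At equal length it held 11, 6, 0, 0 and 1.

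The Reln peaks formed 19 regions, 18 of them placed in the gene body and 1 at the start. Both EpCAM-high lists and no other held 8 regions, EpCAM-high CK19 alone 6 and EpCAM-high Sox9 alone 3. The 8 shared regions lay 160.984 to 384.303 kb from the start, and 7 of them fell between 150 and 250 kb, a window chosen after the positions were seen that spans 21.7% of the gene. The strongest was chr5:22183071-22184108, with −log10 q 71.1 in EpCAM-high CK19 (top 10.2%) and 39.4 in EpCAM-high Sox9. The region chr5:22113594-22114321 followed with 63.0 and 63.7, the latter in the top 7.71% of EpCAM-high Sox9, and chr5:22141781-22142218 had 52.7 and 41.8. Summits of the EpCAM-high lists lay 47 and 44 bp apart at the last 2 of these sites.

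At the Reln start, EpCAM-high CK19 held a peak of 1482 bp (−log10 q 43.2) and EpCAM-high Sox9 one of 1867 bp (32.5). Prog-like Sox9 held one of 328 bp with a −log10 q of 3.03, in the last part of its list (top 97.2%), and Prog-like CK19 and Tumor Sox9 held none. The only other peaks outside the EpCAM-high lists were a pair in Prog-like CK19 (5.83) and Tumor Sox9 (2.03) at chr5:21986270-21986726, whose summits lay 3 bp apart.

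**Figure D3:**
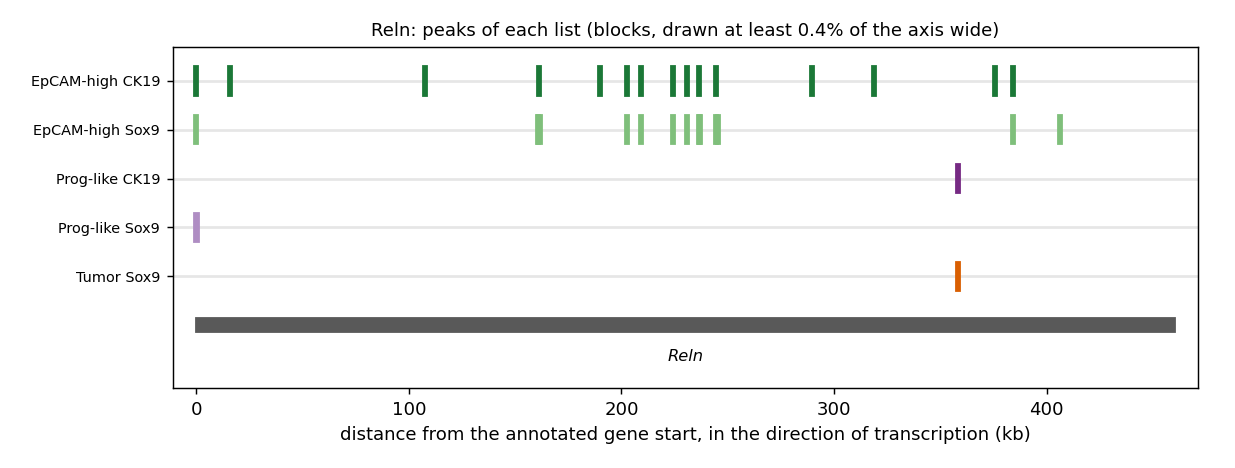
Positions of Reln peaks by distance in kb along the gene, with 1 row for each peak list. Both EpCAM-high rows carry the series of peaks 150 to 250 kb from the start as well as the peak at the start, and the other 3 rows hold 1 peak each.

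Dcn, which encodes the matrix proteoglycan decorin (gene ID 13179, chr10:97479500-97518163), held 2 peaks, both in EpCAM-high CK19. They lay at chr10:97516575-97516797 and chr10:97524829-97525402, with −log10 q 3.08 and 2.56 (top 89.3% and 91.2%), and neither was left at equal length. In the other lists the nearest peak was 36600 to 76677 bp away. Dcn, an abundant transcript of stellate cells and fibroblasts, was thus without a peak at its locus in 4 of 5 lists.

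The transcription factor genes showed mixed patterns. Hand2 (gene ID 15111, chr8:57320983-57324517, plus strand) held 4, 2, 1, 1 and 0 peaks, or 17.0, 8.50, 4.25, 4.25 and 0 per 100 kb, and 2, 0, 0, 0 and 0 at equal length. The region chr8:57328387-57328976, 7.713 kb after the start, was held by all lists but Tumor Sox9, with −log10 q 24.8, 5.82, 9.27 and 3.03. Both EpCAM-high lists and no other held chr8:57312136-57312818, before the start at -8.254 kb, with 4.52 and 3.23. EpCAM-high CK19 alone held chr8:57321064-57322325 (7.79), which runs from 81 to 1342 bp after the start. The nearest Tumor Sox9 peak was 104386 bp from Hand2, farther than for any other of the 10 genes.

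Lhx2 (gene ID 16870, chr2:38339271-38369737, plus strand) held 2, 4, 4, 2 and 4 peaks, and was the only gene of the 10 at which Tumor Sox9 held more than 1. At the upstream start Tumor Sox9 held its highest-ranked peak of the locus (−log10 q 12.7, top 36.5%), which ran over the start from -39 to 623 bp. EpCAM-high Sox9 (4.06) and both Prog-like lists (3.42 for CK19, 3.73 for Sox9) held peaks of lower −log10 q there and EpCAM-high CK19 held none. The downstream start had a peak in all 5 lists, with −log10 q 18.2, 19.0, 17.1, 7.71 and 4.09. Within its own list the strongest peak ranked in the top 43.1%, 36.1%, 67.2%, 83.9% and 77.1%, lowest in Prog-like Sox9. There the stronger EpCAM-high Sox9 peak ended at -179 bp, before the start, while the peaks of the other 4 lists covered it. Tumor Sox9 alone held chr2:38366381-38366725 (7.42) in the gene body, the only region of the 54 that no other list held with it. Both EpCAM-high lists and no other held chr2:38368813-38369080 (3.18 and 5.82). Prog-like CK19 alone held chr2:38347766-38348286 (6.48). Prog-like CK19 (13.1) and Tumor Sox9 (2.03) held chr2:38378327-38379300. At equal length the counts were 1, 1, 0, 0 and 4, where Tumor Sox9, whose length set the cut, keeps its weak peaks by construction. With a −log10 q of 5 or more the counts were 1, 2, 3, 1 and 2.

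**Figure D4:**
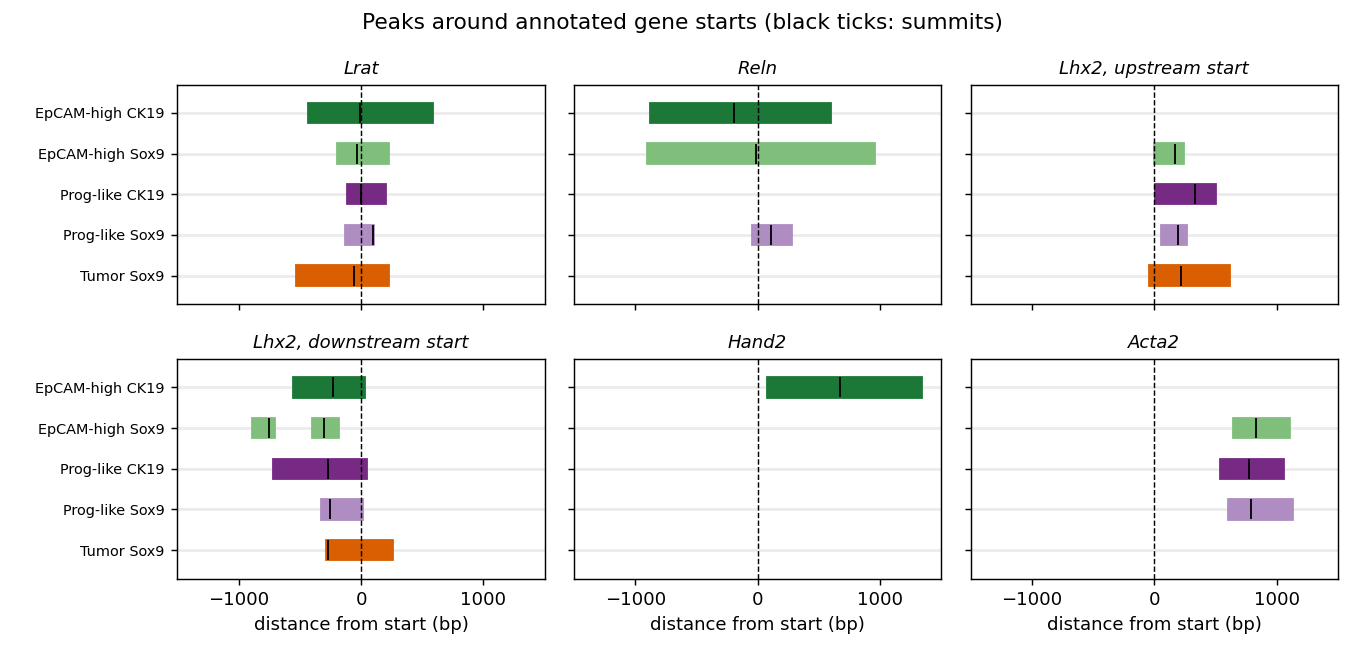
Peaks near the annotated gene start, by distance in bp (negative before the start), for Lrat, Reln, both starts of Lhx2, Hand2 and Acta2 and each peak list. Des and Pdgfra, whose RefSeq starts no peak covered, are not drawn. Lrat and the downstream Lhx2 start have a peak in all 5 lists, while the peaks of Acta2 begin 537 bp or more inside the gene.

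To compare the lists in pairs, a gene was counted as different when its locus peaks differed by 2 or more and by 2-fold or more. For CK19, Acta2, Pdgfrb and Lhx2 had more in Prog-like than in EpCAM-high, 3 of 9 genes with a peak in either list (27.5% of all genes). Reln, Dcn and Hand2 had more in EpCAM-high CK19, also 3 of 9 (9.96%). For Sox9, Acta2 and Pdgfrb had more in Prog-like, 2 of 7 (22.2%), and Reln and Lhx2 more in EpCAM-high, 2 of 7 (13.7%). Acta2 and Pdgfrb were thus past the rule toward Prog-like in both pairs (17.4% of genes) and Reln toward EpCAM-high in both (6.84%). For Acta2 both calls depended on the flanks. In Sox9, EpCAM-high and Prog-like held 3 and 4 peaks with 0 kb and 3 and 5 with 5 kb. With 50 kb they held 12 and 18, and none of these was past the rule. In CK19 the call was kept with 0 kb and with 5 kb (1 and 4 peaks) and lost with 50 kb (10 and 15). At equal length Acta2, Pdgfrb and Reln were past the rule in both pairs, where 10.8% and 8.97% of genes were. In single pairs at equal length, Acta2 and Pdgfrb were toward Prog-like in CK19 (15.6%) and in Sox9 (14.8%), Reln and Hand2 toward EpCAM-high in CK19 (13.3%), and Reln in Sox9 (13.9%). Lhx2 was past it in opposite directions in the CK19 and Sox9 pairs.

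Tumor Sox9 had more peaks than EpCAM-high Sox9 at 0 of 7 genes (3.88%) and fewer at 4, Acta2, Pdgfrb, Reln and Hand2 (20.1%). It had more than Prog-like Sox9 at 1 of 7, Lhx2 (7.25%), and fewer at 3, Acta2, Pdgfra and Pdgfrb (31.9%). Tumor Sox9 is the shortest list, and at equal length the counts were 1 more (Lhx2, 9.79%) and 1 fewer (Reln, 9.7%) against EpCAM-high Sox9, and 1 more (Lhx2, 14.9%) and 2 fewer (Acta2 and Pdgfrb, 15.3%) against Prog-like Sox9. Within EpCAM-high, CK19 had more at Dcn and Hand2, 2 of 8 (3.49%), and Sox9 more at Acta2 and Lhx2 (6.92%). Within Prog-like, CK19 had more at Lhx2, 1 of 8 (4.09%), and Sox9 at none (0.962%). At equal length EpCAM-high CK19 had more at Hand2 (3.61%) and EpCAM-high Sox9 at 0 genes (3.34%), and neither Prog-like list had more at any of the 10 (2.1% toward CK19 and 0.791% toward Sox9).

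By region, 12 of 54 were held by both Prog-like lists and no other, or 22.2%, against 25.8% of all regions. Both EpCAM-high lists and no other held 10, or 18.5%, against 9.32%, and 8 of these 10 were in Reln. All 5 lists held 3, or 5.56% against 9.75%: the Lrat start, the downstream Lhx2 start and the gene-body site of Pdgfra. EpCAM-high CK19 alone held 10, or 18.5% against 9.99%, and Tumor Sox9 alone held 1, or 1.85% against 8.45%. In regions held by both Prog-like lists alone, the summits of the lists lay a median of 37.5 bp apart (3 to 70 bp), against 20 bp over all such regions. In those held by both EpCAM-high lists alone, the median was 45.5 bp (2 to 121 bp), against 36 bp.

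The protein-coding genes most like Reln by summed difference in locus peaks over the 5 lists were Cftr (16, 15, 0, 0 and 1 peaks, difference 5), Nhs (14, 15, 1, 1 and 3, difference 5) and Sorcs3 (14, 12, 0, 0 and 3, difference 6). Cftr encodes the chloride channel of bile duct cells and is among the biliary markers above. Those most like Pdgfrb were Cd83 (0, 2, 9, 8 and 0, difference 1) and Gm973 (1, 2, 9, 7 and 0, difference 1), and Adcy7 (1, 2, 11, 8 and 0) was 1 of 9 genes at a difference of 2. Cd83 encodes a surface protein of activated dendritic and B cells.

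A wider list of 66 stellate, smooth muscle and fibroblast genes was also chosen with earlier results of these data known. It had a locus peak at 55, 53, 51, 48 and 43 genes, beside 75.8%, 74.6%, 74.5%, 72.4% and 68.8% of all protein-coding genes. At equal length the counts were 48, 46, 36, 36 and 43, beside 69.9%, 68.3%, 65.5%, 64% and 68.8%. The 28 stellate and pericyte genes held 71, 67, 52, 54 and 41 peaks, more in both EpCAM-high lists than in the others, but 34, 36, 22, 22 and 41 at equal length, where Tumor Sox9 held the most. The 20 smooth muscle and contractile genes held 53, 78, 88, 69 and 49 (43, 48, 44, 39 and 49 at equal length), and the 18 fibroblast and portal genes held 22, 28, 27, 27 and 13 (20, 21, 13, 14 and 13). Of the 61 genes with a peak in the EpCAM-high or Prog-like lists, 5 were past the difference rule toward Prog-like in both the CK19 and the Sox9 pair and 9 toward EpCAM-high, against 17.4% and 6.84% of all genes.

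The 5 toward Prog-like included Mrtfa, the actin-regulated coactivator of serum response factor (2, 3, 16, 13 and 2 peaks), and Postn, the matrix protein periostin (1, 2, 4, 7 and 1). The others were Vipr1, a receptor for vasoactive intestinal peptide (1, 2, 5, 6 and 1), Kcnj8, a potassium channel subunit of pericytes (1, 1, 3, 3 and 2), and Ecm1, an extracellular matrix protein (0, 0, 2, 2 and 0). The 9 toward EpCAM-high included Cspg4, the pericyte proteoglycan NG2 (2, 3, 0, 0 and 1), and Mylk, myosin light chain kinase (5, 8, 2, 0 and 6). Ntm, a neural cell adhesion molecule, held 6, 6, 3, 3 and 0, and Gata4, a transcription factor of stellate and endothelial cells, held 4, 4, 1, 1 and 5. Tpm1, a tropomyosin, held 4, 4, 1, 1 and 3, and Ldb3, a sarcomere protein, held 4, 3, 1, 1 and 4. Sod3, extracellular superoxide dismutase, held 2, 2, 0, 0 and 0, and Entpd2, an ectonucleotidase of portal fibroblasts, held 2, 2, 0, 0 and 2. At equal length 3 genes were past the rule in both pairs toward Prog-like and 8 toward EpCAM-high, against 10.8% and 8.97% of all genes. Of the genes past it as deposited, 2 of the 5 toward Prog-like, Mrtfa and Postn, and 4 of the 9 toward EpCAM-high, among them Cspg4, Ntm and Mylk, were among these.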

How the data were processed

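Peaks were taken from 5 deposited ATAC-seq lists in the narrowPeak layout, 39644 to 71375 peaks each, for 8 labelled samples in 5 groups. Tools listed in the submitters' processing notes, without role or order, are Bowtie 1.1.2, MACS2, HOMER and deepTools, with the build mm10. The sources used here do not give pooling, transposase shift, duplicate removal or read depth. Per the layout, the authors' signal value is fold enrichment, and the deposited significance values are −log10 p and −log10 q, lowest −log10 q 1.30 to 1.32. They rise with depth and rank peaks only within 1 list. A "top" percent is the rank by −log10 p.

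Peaks were counted by overlap of 1 bp with RefSeq gene positions (GRCm38.p6). Starts came from the RefSeq promoter table for 17492 of 21887 genes, and either gene end was used for the rest, among them Tagln, Pdgfrb and Dcn. Exons were not separated. The members and lists were chosen with earlier results of these data known. Named were all 10 genes, genes of the wider list past the rule in both pairs (1 is not reported here), and for each gene the regions at its start, in all 5 lists, highest in EpCAM-high without Prog-like or the reverse, or in Tumor alone, other regions being chosen after their values were seen. The 3 genes most like a member were named for the 2 members with the widest range. Python 3.11.15, pandas 2.3.3 and numpy 2.4.6 were used, and the overlap and merging code was checked on simulated intervals. Alternatives were equal length, a −log10 q of 5 or more, other flanks, windows and overlaps, and nearest-gene assignment.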

Additional observations from a re-analysis of the deposited data

How the results depend on the processing

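Of the group counts recomputed under the alternatives, 111 stayed within 1.5 times the value given and 40 did not. Of 161 values of the 23 differences past the rule, 146 kept their direction, 13 became 0 and 2 reversed: Lhx2 in Prog-like minus EpCAM-high CK19 was -1 at equal length, and Lhx2 in Tumor minus Prog-like Sox9 was -1 with 50 kb flanks. The causes of these changes were not tested, beyond the fewer peaks or the other span that each setting uses by construction.

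At equal length, the Prog-like lists had a locus peak at 3 (CK19) and 3 (Sox9) genes, and genes with a start peak 0 and 1. Genes past the rule were 1 for EpCAM-high over Prog-like Sox9, 1 for Tumor over EpCAM-high Sox9, 1 for EpCAM-high Sox9 over Tumor, 1 for EpCAM-high CK19 over EpCAM-high Sox9, 0 for the reverse and 0 for Prog-like CK19 over Prog-like Sox9. Regions of both EpCAM-high lists alone were 6, and of all 5 lists 1.

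With a −log10 q of 5 or more, Prog-like Sox9 had a locus peak at 4 genes and a start peak at 2. Genes past the rule were 1 for EpCAM-high over Prog-like in CK19 and 1 in Sox9, 2 for EpCAM-high Sox9 over Tumor, 0 for Tumor over Prog-like Sox9, and 0 in either direction between the EpCAM-high lists. Regions of both EpCAM-high lists alone were 6, and of all 5 lists 1.

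With flanks of 0 kb, and equally with 5 kb, genes past the rule were 1 for EpCAM-high over Prog-like CK19, 1 for Prog-like over EpCAM-high Sox9, 2 for EpCAM-high Sox9 over Tumor, 0 for Tumor over Prog-like Sox9, 0 for EpCAM-high CK19 over Sox9 and 0 for Prog-like CK19 over Sox9. With 50 kb flanks, Tumor Sox9 had a locus peak at 8 genes, and genes past the rule were 1 for Prog-like over EpCAM-high Sox9, 1 in each direction between the EpCAM-high lists and 0 for Prog-like CK19 over Sox9. With a 2500 bp window, Prog-like CK19 had a start peak at 6 genes. The Prog-like over EpCAM-high Sox9 call lost with other flanks was that of Acta2. With 50 kb flanks the CK19 call of Acta2 was lost too, though the group count for that pair stayed at 3. All group counts stayed within 1.5 times with a 250 bp window, 50% of the peak required in the locus, nearest-gene assignment, 50% of either peak required to overlap, or summits joined within 150 bp, though 5 of them changed by 1.

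No paired analysis was possible because each condition has 1 peak list and no test was run. No replicate was left out, as none has a list of its own. A peak missing from a list was not detected at its unknown depth, which is no evidence of absence.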
